A study of Homo sapiens with 21 samples.

Results

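The comparison described here sets A673 cells that received the EWS/FLI mutant called mut9 after knockdown of EWS/FLI against the same knockdown with an empty vector. Its members are 8 of the 21 RNA-seq libraries of the series: 3 mut9 libraries (replicates 3, 4 and 5) and 5 knockdown libraries (replicates 1 to 5), taken by their rescue and RNAi labels. Of the 57820 genes listed, 18040 were tested, those with a value of at least 10 on the linear scale in 3 or more of the 21 libraries, and the measure is mut9 minus knockdown. A673 is an established Ewing sarcoma cell line. In both groups EWS/FLI was lowered by stable RNAi with the construct EF-2-RNAi, cells were selected for 4 days, and a pMSCV-hygro retroviral vector was added. That vector was empty in the knockdown libraries and carried mut9 in the others, so both groups share the RNAi, the selection and the vector backbone. The labels name mut9 but do not describe what was changed in the protein, and no clone or transgene level is given. The other groups are the same RNAi with full-length type IV EWS/FLI (5 wild-type libraries), the same RNAi with a second mutant, delta 22 (4 libraries), and a luciferase RNAi with the empty vector (4 control libraries, replicates 1, 2, 3 and 5). The replicate number is the batch given in the labels, and nothing says whether replicates came from separate cultures, so the p-values measure the spread between these libraries, which may be technical.

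EWS/FLI is the fusion of the RNA-binding protein EWSR1 with the ETS transcription factor FLI1 that drives Ewing sarcoma. Its FLI1 part binds the core sequence GGAA, singly as other ETS factors do and also in repeated runs, and its EWSR1 part recruits the transcription and chromatin machinery. Loss of the fusion in Ewing cells is known to silence genes linked to GGAA repeats, such as NR0B1 and NKX2-2, and to release mesenchymal, adhesion and matrix genes that the fusion holds down.

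Values are the normalized log2 values that the authors deposited, in the form of regularized logarithms, which draw the differences of low genes toward 0. They keep no read totals, so the depth of each library is unknown. Between 16708 and 17326 genes per library reached 10 on the linear scale. Differences are from 1 limma model of all 21 libraries with the batch as a block, ± is the standard error, and a gene is called when its Benjamini-Hochberg adjusted p over the 18040 genes is under 0.05. Over these libraries the first principal component took 71.3% of the variance. On it the mut9 libraries lay at 27.4, 31.4 and 24.4, apart from the knockdown libraries at -91.6 to -73.3. The wild-type libraries lay at 60.6, 62.8, 30.5, 62.6 and 32.5, so replicates 3 and 5 were near the mut9 libraries on this component. Wild-type replicate 3 also stood apart from the rest of its group in interferon and inflammatory genes, and the counts of those lists against wild type are given with and without it.

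FLI1, the gene of the ETS part of the fusion, was at log2 10.39, 10.2 and 10.1 in the mut9 libraries. In the knockdown libraries it was at 9.67, 9.84, 9.99, 9.59 and 9.76, so every mut9 library was above every knockdown library. The fitted difference was 0.49 ± 0.11 (adjusted p = 0.00189). The plain difference of means was 0.46, with a 2-sided exact permutation p of 0.0357, the smallest that 3 against 5 libraries allow, and 0.0714 after adjustment over FLI1 and EWSR1. EWSR1, the gene of the other part of the fusion, lay at 13.79 to 13.94 with mut9 and 13.58 to 13.81 with knockdown, and the groups overlapped (0.14 ± 0.08, adjusted p = 0.153, exact permutation p = 0.107). Gene-level values of FLI1 and EWSR1 do not separate the transgene from the cell's own fusion or from the unfused genes.

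Of the 18040 genes tested, 9211 (51.1%) were called between mut9 and knockdown. They divided into 4331 higher with mut9 (24.0%) and 4880 lower (27.1%). Under quantile scaling this split turned, to 5403 higher and 4235 lower. A change of at least 2-fold was called for 1156 higher genes (6.41%) and 1857 lower genes (10.3%). Each of batches 3, 4 and 5 holds 1 mut9 and 1 knockdown library. Of the 4331 genes called higher, 4294 were higher in all 3 batches, and of the 4880 called lower, 4830 were lower in all 3. The calls came from these same libraries, so this agreement was largely built in and is no separate evidence. Protein-coding genes gave 3676 higher and 4167 lower of 14234, lincRNAs 162 and 202 of 767, antisense genes 173 and 168 of 959, and processed pseudogenes 57 and 61 of 634. The median difference over all genes was -0.001, and 0.067 under quantile scaling. RNA was taken from whole cultures, so fewer cells of a kind and less RNA per cell cannot be told apart.

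**Figure D1:**
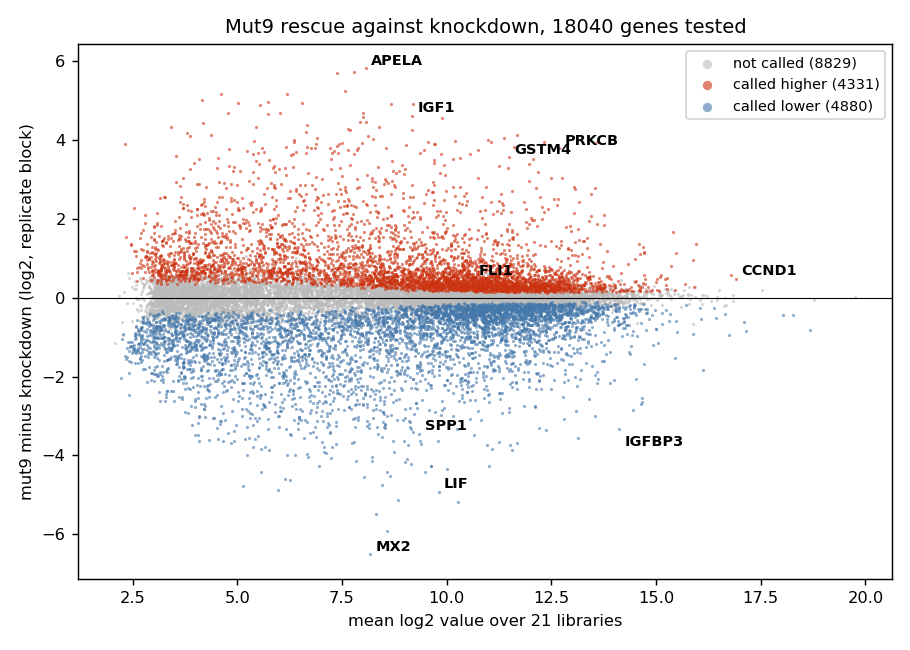
Difference mut9 minus knockdown (vertical axis, log2, from the model with the batch block) against the mean log2 value over the 21 libraries (horizontal axis), 1 point per gene tested. Red points are the 4331 genes called higher and blue points the 4880 called lower; the largest rise was APELA at 5.82 and the largest fall MX2 at -6.51.

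Genes known as EWS/FLI targets through GGAA repeats rose with mut9 almost throughout the list. Of 26 tested members 25 rose and 0 fell, with a median difference of 2.36 against -0.001 over all genes. The broader list of genes known to be activated by EWS/FLI had 37 members higher and 6 lower of 50 (median 1.33). Both lists come partly from work in this cell line and are not independent evidence of direction.

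PRKCB, the beta form of protein kinase C, was at 14.68, 14.63 and 14.47 with mut9. In the knockdown libraries it was at 9.73, 10.86, 11.5, 10.26 and 10.88. The groups did not overlap, and PRKCB rose by 3.79 ± 0.28 (adjusted p = 3.25e-08). GSTM4, a glutathione transferase whose reads can be shared with its near-identical GSTM relatives, was at 13.53, 13.66 and 13.43 with mut9 against 9.78, 9.87, 10.28, 10.12 and 9.61. Its difference was 3.56 ± 0.17 (adjusted p = 1.1e-09). FCGRT, the neonatal Fc receptor, was at 13.66, 13.55 and 13.36 against 8.92, 9.2, 9.99, 9.2 and 9.45, a rise of 4.05 ± 0.21. In all 3 genes every mut9 library was above every knockdown library.

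NR0B1, an orphan nuclear receptor needed for Ewing cell growth, was at 12.22, 12.14 and 11.82 with mut9. It was at 8.45, 9.27, 10.39, 9.29 and 9.84 in the knockdown libraries, the highest in batch 3. It rose by 2.46 ± 0.24 (adjusted p = 6.43e-07). NKX2-2, a homeodomain repressor, was at 10.03, 10.09 and 9.54 against 6.77, 7.23, 7.6, 7.46 and 7.08 and rose by 2.63 ± 0.15. The lipase gene LIPI rose by 3.50 ± 0.30 and BCL11B, a zinc finger factor, by 2.42 ± 0.19. The surface protein gene STEAP1 rose by 1.28 ± 0.15, CAV1, which encodes the caveolae protein caveolin, by 0.96 ± 0.14, and CCND1, the cyclin D gene, by 0.48 ± 0.11 (adjusted p = 0.0017). The mut9 and knockdown libraries did not overlap in any of these genes. Over all genes tested, such separation was nearly as common in each direction as a call. Non-overlap alone therefore does not set a gene apart, here or for the other genes named.

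Not every member followed. CALCB, a calcitonin gene-related peptide gene, was at 6.98, 6.83 and 6.77 with mut9 and at 5.71, 5.51, 6.84, 6.05 and 6.68 with knockdown. The groups overlapped, and the difference of 0.56 ± 0.28 was not called (adjusted p = 0.111); it was called without knockdown replicate 5, at 0.75. CCK, the cholecystokinin gene, passed narrowly at 1.00 ± 0.37 (adjusted p = 0.0349) and lost its call when any of 6 single libraries was left out, with values of 0.66 to 1.07. The 6 members of the activated list that fell were ERG (-1.94), UPP1 (-1.72), PDGFC (-1.01), PHF19 (-0.77), MYC (-0.43) and FOXM1 (-0.39). ERG is an ETS factor of endothelium, and MYC and FOXM1 are growth-related transcription factors. EZH2, the Polycomb methyltransferase, rose by 0.70 ± 0.09, and TERT, the telomerase reverse transcriptase, by 1.64 ± 0.25.

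**Figure D2:**
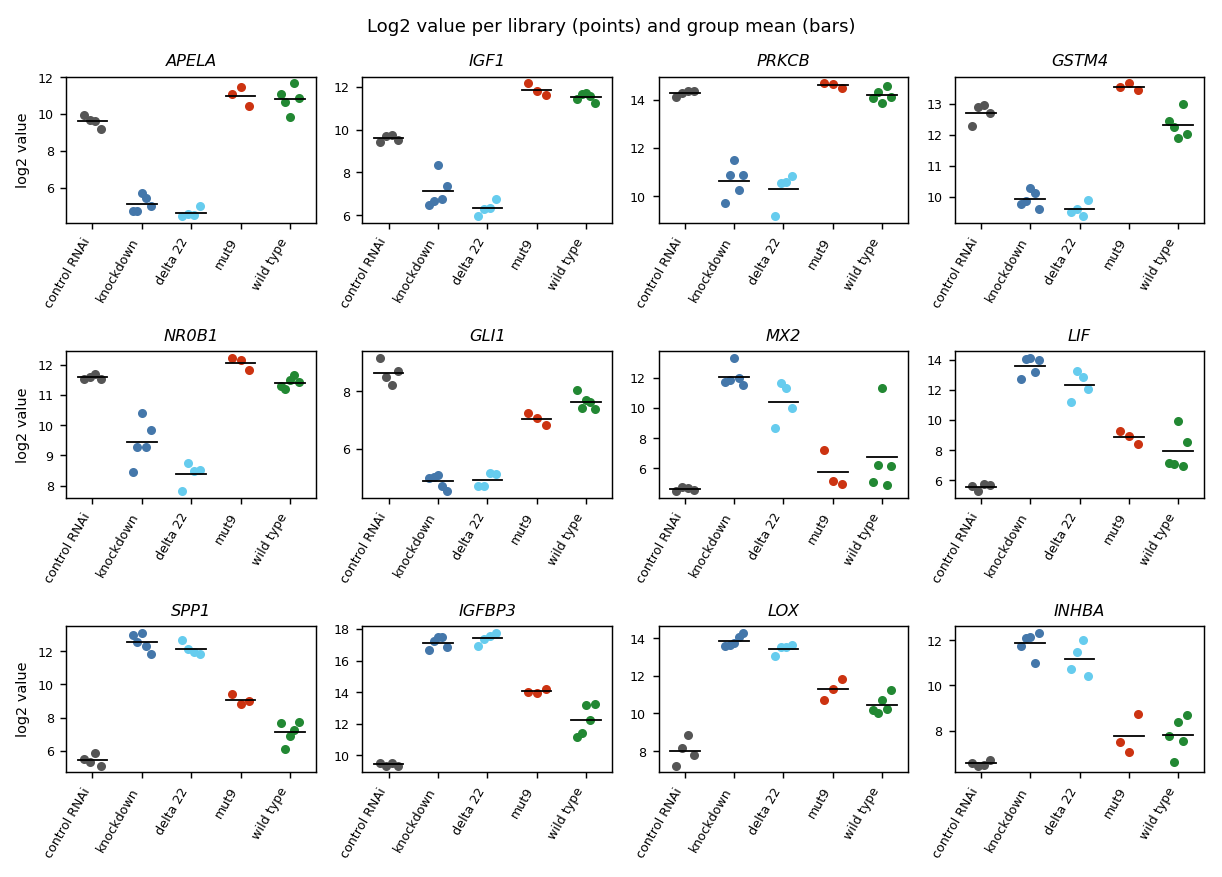
Log2 value (vertical axis, own scale in each panel) of 12 genes in every library, by group; points are libraries and black bars are group means. In the first 6 panels mut9 libraries stand above all knockdown libraries, as for PRKCB at 14.47 to 14.68 against 9.73 to 11.5, and in the last 6 they stand below, as for LIF at 8.43 to 9.27 against 12.73 to 14.1.

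Among genes with a mean of at least 100 on the linear scale and no overlap between the groups, the largest rises were mostly of genes outside these lists. APELA, which encodes a peptide ligand of the apelin receptor, was at 11.06, 11.47 and 10.42 with mut9 and at 4.7, 4.74, 5.71, 5.41 and 4.99 with knockdown. Its difference was 5.82 ± 0.29 (56.4-fold, adjusted p = 1.1e-09). ISM2, a secreted isthmin family gene, was at 10.89, 11.34 and 10.95 against 4.87 to 5.76 and rose by 5.71 ± 0.34. MAP7D2, a microtubule-associated protein gene, rose by 5.69 ± 0.46. Transporter genes were among them, with SLC35F3 at 5.25 ± 0.29 and the peptide transporter gene SLC15A2 at 4.92 ± 0.22. CYP4F22, a fatty acid hydroxylase gene that the repressed list holds, rose by 4.90 ± 0.26, and the desmosomal gene PKP2 by 4.68 ± 0.39. LOXHD1 rose by 4.59 ± 0.33, GPR174, a lysophosphatidylserine receptor gene, by 4.46 ± 0.28, and TINCR by 4.39 ± 0.28.

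IGF1, the insulin-like growth factor that feeds the main growth factor receptor of Ewing cells, was at 12.16, 11.81 and 11.6 with mut9. It was at 6.47, 6.67, 8.35, 6.76 and 7.36 with knockdown, and rose by 4.61 ± 0.26 (24.4-fold, adjusted p = 3.46e-09). Its pathway moved in both directions: of 19 tested members 5 rose and 10 fell (median -0.37). The shares were 26.3% and 52.6%, against 24.0% and 27.1% of all genes. The insulin receptor gene INSR rose by 1.61 ± 0.19 and the adaptor gene IRS2 by 1.79 ± 0.12, while IGF1R, the receptor itself, fell by 0.29 ± 0.11 (adjusted p = 0.0334). The binding proteins that hold the ligand outside the cell fell: IGFBP3 was at 14.01, 13.96 and 14.19 with mut9 against 16.64, 17.25, 17.46, 17.5 and 16.83 with knockdown, a difference of -3.34 ± 0.32. IGFBP1 fell by 4.63 ± 0.28, IGFBP6 by 2.21 ± 0.16 and IGFBP7 by 1.55 ± 0.18. IGFBP5 (-0.36) and IGFBP4 (-0.44) were not called.

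Among receptor tyrosine kinases and the feedback genes of the MAP kinase pathway, 8 rose and 19 fell of 42 (median -0.35). The shares were 19.0% and 45.2%, against 24.0% and 27.1% of all genes. The epidermal growth factor receptor EGFR was at 7.82, 8.16 and 8.79 against 12.04, 11.2, 11.43, 11.4 and 11.88 and fell by 3.27 ± 0.31. The hepatocyte growth factor receptor MET fell by 2.90 ± 0.22, AXL by 2.60 ± 0.38, PDGFRA, a platelet-derived growth factor receptor, by 2.34 ± 0.31 and EPHA2, an ephrin receptor, by 1.27 ± 0.09. KIT did not pass the test (-0.25 ± 0.30, adjusted p = 0.501). The feedback inhibitor SPRED1 fell by 1.17 ± 0.10.

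Hedgehog pathway genes gave 5 higher and 5 lower of 17 (29.4% each way, median -0.02), near the 24.0% and 27.1% of all genes. GLI1, the effector that EWS/FLI is known to induce, was at 7.23, 7.07 and 6.84 with mut9 and at 4.98, 5.02, 5.08, 4.72 and 4.54 with knockdown. It rose by 2.22 ± 0.20 (adjusted p = 2.47e-07). The receptor PTCH1, itself a pathway target, rose by 1.23 ± 0.11 and the co-receptor GAS1 by 2.01 ± 0.13. GLI2 fell by 1.15, the co-receptor BOC by 1.63 and HHAT, which acylates the ligand, by 1.57 ± 0.17. In the Wnt list 10 rose and 17 fell of 35 (28.6% and 48.6%, median -0.41). The ligand genes WNT7B and WNT5B fell by 4.00 ± 0.27 and 2.38 ± 0.16, the factor TCF7 fell by 2.25 ± 0.17, and the inhibitor genes split: DKK2 rose by 3.99 ± 0.31 and FRZB by 2.95 ± 0.28, while DKK1 fell by 1.27 ± 0.26 and SFRP1 by 3.78.

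Neural and neuropeptide genes had 15 higher and 7 lower of 27 (55.6% and 25.9%, median 0.67). The neuropeptide Y receptor NPY5R was at 9.4, 9.17 and 8.72 with mut9 against 4.77, 5.14, 5.76, 4.5 and 4.94 (4.06 ± 0.29, adjusted p = 3.12e-08). The receptor NPY1R rose by 3.75 ± 0.33 and the ligand NPY by 2.57 ± 0.23. The LIM homeodomain factor ISL1 rose by 2.01 ± 0.12 and the POU factor POU3F2 by 1.40 ± 0.11. Granin and neuropeptide genes that fell were CHGB (-2.49), GAL (-2.34) and SCG2 (-1.66). Homeobox and SOX factor genes gave 16 higher and 14 lower of 39 (41.0% and 35.9%, median -0.10), against 24.0% and 27.1% of all genes. PAX7 at 3.67 ± 0.35, SOX6 at 1.49 ± 0.10 and SOX2 at 0.70 ± 0.17 were among the higher. Of the HOX genes called, HOXD8, HOXD9, HOXD10, HOXD11 and HOXD13 rose (0.63 to 1.20), while HOXB2, HOXB9, HOXC6 and HOXC10 fell (-1.41 to -0.50).

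Other ETS factors, which share the GGAA core, gave 4 higher and 9 lower of 21 (median -0.26). The shares were 19.0% and 42.9%, against 24.0% and 27.1% of all genes. FEV was at 7.54, 7.53 and 7.37 with mut9 and at 3.53, 3.49, 3.68, 3.47 and 3.79 with knockdown, and rose by 3.83 ± 0.28. ETS1, a broadly expressed family member, fell by 2.33 ± 0.25, from 13.46, 13.64, 13.55, 13.46 and 14.19 to 11.24, 11.28 and 11.89. The epithelial factor EHF fell by 4.77 ± 0.62, with knockdown libraries scattered from 6.9 to 10.65 and mut9 libraries at 3.05 to 3.48. ELF2 rose by 0.67 ± 0.07.

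Interferon response genes fell in nearly all members, and the 5 largest falls of all genes called (MX2, IFI27, OAS2, MX1 and XAF1) were among them. Of 37 tested members 33 fell and 1 rose (median -2.47). Type I interferons act through a complex that holds STAT2 and IRF9 and binds the response element GAAANNGAAA in the promoters of antiviral genes. MX2, an antiviral GTPase, was at 7.21, 5.19 and 4.95 with mut9 and at 11.75, 11.83, 13.31, 11.96 and 11.52 with knockdown. It fell by 6.51 ± 0.81 (91.2-fold lower, adjusted p = 7.2e-06). IFI27 was at 7.77, 5.91 and 5.99 against 11.22, 12.22, 13.2, 12.09 and 12.2 and fell by 5.92 ± 0.85. Batch 3 was the highest library of each group in both genes.

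OAS2, which makes the second messenger of antiviral RNA decay, fell by 5.49 ± 0.82, and MX1, a second antiviral GTPase, by 5.18 ± 0.83. XAF1 fell by 5.13 ± 0.80, the ubiquitin ligase gene HERC6, which the list does not hold, by 4.74 ± 0.61, TRIM22 by 4.53 ± 0.72 and OASL by 4.42 ± 0.44. The factors themselves moved less, with STAT2 at -1.06 ± 0.20 and IRF9 at -1.13 ± 0.34. IFITM2 was the riser, at 8.52, 8.08 and 8.11 against 5.23 to 7.34 (1.44 ± 0.53, adjusted p = 0.0337). No member of the list was called higher without knockdown replicate 1, 2 or 5, without any 1 of the mut9 libraries, or in batches 3 to 5 alone. IFITM1 (-0.98), IFITM3 (-0.65) and GBP2 (-0.29) were not called. IFITM genes are near-identical neighbours that can share reads. The list mean was 10.21, 9.24 and 9.03 in the mut9 libraries and 11.66 to 12.67 in the knockdown libraries. Mut9 replicate 3 was the highest of its group, and the groups did not overlap.

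Promoter windows from RefSeq (GRCh38.p14, 250 bases before to 50 after the first listed start, the gene's own strand) were matched to 12336 of the tested genes, 68.4%. Windows of 1 chromosome were left out of the search, so its genes are among those not matched. The letters GAAANNGAAA, searched on both strands with overlapping matches allowed, were in 19 of the 27 matched windows of the interferon list (70.4%), against 2.93% of all matched tested genes. They were in 4.09% of windows of genes called lower and in 1.92% of those called higher. A match is a description of the sequence and shows no binding. Stretches of 4 members of this list are printed because they carry the element that the list's name refers to, with the matched letters in capitals, 5′ to 3′ on the gene's strand, which is the plus strand for all 4.
IFI27: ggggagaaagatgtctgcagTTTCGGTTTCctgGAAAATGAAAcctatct
IFIT1: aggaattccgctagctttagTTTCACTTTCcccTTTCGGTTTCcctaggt
IFI44L: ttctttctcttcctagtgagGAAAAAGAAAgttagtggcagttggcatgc
ISG15: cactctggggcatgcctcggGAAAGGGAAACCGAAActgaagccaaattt
They lie at chr14:94110608-94110657, chr10:89392487-89392536, chr1:78620264-78620313 and chr1:1013364-1013413, with the first match 108, 116, 164 and 113 bases before the start. Capitals in IFI27 and IFIT1 that read TTTC are the same element on the other strand. These 4 genes fell by 5.92 ± 0.85, 3.84 ± 0.58, 3.66 ± 0.71 and 2.57 ± 0.42. The letters GGAAGGAA, a pair of joined GGAA cores, were in 3.49% of the windows of genes called higher, 3.61% of those called lower and 3.37% of those not called. They were in 1 of 21 windows of the GGAA-repeat list, that of CAV1, and the repeats known for these genes can lie outside such windows.

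Genes of MHC class I antigen presentation, which interferon also induces, fell in 16 of 20 members with 0 higher (median -1.0). HLA-C, a class I heavy chain, was at 14.15, 13.6 and 13.55 with mut9 and at 14.84, 15.53, 15.57, 15.11 and 15.31 with knockdown, without overlap. It fell by 1.60 ± 0.27, the peptide transporter gene TAP1 by 1.96 ± 0.37 and the immunoproteasome gene PSMB10 by 1.26 ± 0.19. HLA genes are near-identical to each other and can share reads. The chaperone genes TAPBP, PDIA3, CALR and CANX were the 4 members not called (-0.21 to 0.08).

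NF-kB and inflammatory genes fell in 34 of 36 members with 1 higher, with a median of -3.08, the lowest of the 33 lists. LIF, a cytokine of the interleukin-6 family, was at 9.27, 8.97 and 8.43 with mut9 and at 12.73, 14.01, 14.1, 13.17 and 13.99 with knockdown. It fell by 4.92 ± 0.46 (adjusted p = 4.22e-07). IL11, of the same family, fell by 4.51 ± 0.36, PTGS2, the inducible prostaglandin synthase, by 3.85 ± 0.34, the chemokine CXCL8 by 3.57 ± 0.40, and IL1B by 3.71 ± 0.66. The pathway's own inhibitor NFKBIA fell by 1.37 and the subunit NFKB1 by 1.77. TNFAIP6, a hyaluronan-binding protein that the GGAA-repeat list also holds, was the riser, at 13.88, 13.56 and 13.4 against 10.54, 10.74, 11.37, 10.92 and 10.49 (2.79 ± 0.17). The list mean was 9.61, 8.92 and 8.94 with mut9 and 10.68 to 12.46 with knockdown, without overlap. With delta 22 the list also lay below knockdown, by less, with a median of -1.05. There 1 member was called higher and 4 lower of 36 (2.78% and 11.1%, against 3.55% and 3.61% of all genes).

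**Figure D3:**
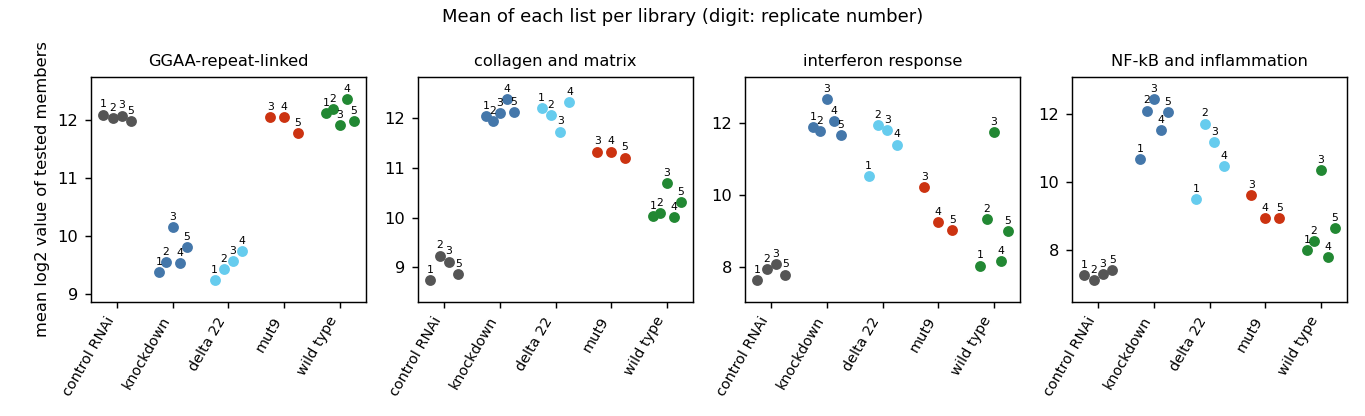
Mean log2 value of the tested members of 4 gene lists (vertical axis, own scale in each panel) in every library, by group; digits are replicate numbers. Mut9 libraries stand with wild type for the GGAA-repeat list (11.78 to 12.05 against 11.92 to 12.37), above wild type for collagen and matrix (11.21 to 11.33 against 10.02 to 10.69), and wild-type replicate 3 stands apart for interferon genes at 11.75.

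Extracellular matrix genes fell in most members. Collagen and matrix structure gave 4 higher and 28 lower of 44 (median -1.02), and the enzymes that cross-link or remodel matrix 1 higher and 26 lower of 32 (median -1.32). SPP1, the matrix phosphoprotein osteopontin, was at 9.44, 8.83 and 8.99 with mut9 and at 13, 12.59, 13.12, 12.34 and 11.84 with knockdown (-3.44 ± 0.30, adjusted p = 2.26e-07). COL6A1, a collagen VI chain, was at 13.3, 13.2 and 13.41 against 15.01, 15.14, 15.26, 15.38 and 15.71 and fell by 2.08 ± 0.26. LOX, which cross-links collagen, was at 10.73, 11.32 and 11.82 against 13.61, 13.66, 13.76, 14.06 and 14.3 and fell by 2.79 ± 0.27. PLAT, the tissue plasminogen activator, fell by 3.68 ± 0.25, the receptor gene PLAUR by 2.17 ± 0.14 and the metalloprotease gene ADAM12 by 3.16 ± 0.19.

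COL21A1 went the other way, at 12.84, 12.74 and 12.22 with mut9 against 8.85, 8.27, 8.96, 9.61 and 8.71 (3.64 ± 0.25, adjusted p = 2.08e-08). The other matrix genes that rose were DCN (1.99), COL16A1 (0.84) and FBLN5 (0.80), and among the enzymes MMP9, a gelatinase, at 2.30 ± 0.47. Fibrillar collagen genes were partly not called, with COL3A1 at 0.92, COL5A1 at 0.06 and COL1A2 at -0.63, while COL1A1 fell by 1.33. MGP, a matrix inhibitor of calcification, did not pass the test (-0.23 ± 0.49, adjusted p = 0.718), with mut9 libraries at 11.13 to 12.53 inside the knockdown range of 9.83 to 13.62.

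Integrin and focal adhesion genes gave 4 higher and 31 lower of 38 (median -0.86). The collagen-binding integrin gene ITGA2 was at 7.78, 7.38 and 7.71 with mut9 and at 12.13, 12.76, 12.48, 11.26 and 11.65 with knockdown (-4.41 ± 0.32, adjusted p = 2.91e-08). The laminin-binding integrin gene ITGA6 fell by 2.11 ± 0.15. The 4 higher members were CAV1, CAV2 (1.5 ± 0.11), TNS1 (1.45 ± 0.10) and ITGA7 (1.67). Genes of the actin cytoskeleton and targets of SRF and YAP fell in 31 of 35 with 1 higher (median -0.84). The tropomyosin gene TPM1 fell by 2.15 ± 0.24, NT5E, a surface nucleotidase, by 2.68 ± 0.26, and YAP1, the coactivator itself, by 0.48 ± 0.05, while ACTA2, the smooth muscle actin gene, rose by 1.08.

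Mesenchymal transition genes gave 4 higher and 17 lower of 25 (median -1.59). CD44, a hyaluronan receptor, was at 13.94, 14.03 and 14.75 with mut9 and at 16.33, 16.53, 16.06, 16.11 and 16.27 with knockdown (-2.08 ± 0.21, adjusted p = 7.79e-07). The AP-1 subunit FOSL1 fell by 2.59 ± 0.22, the cadherin gene CDH13 by 2.46 ± 0.22 and the transcription factors RUNX1 and ZEB1 by 3.29 ± 0.35 and 2.41 ± 0.29. TGF-beta and BMP genes gave 8 higher and 21 lower of 41 (median -0.50). The shares were 19.5% and 51.2%, against 24.0% and 27.1% of all genes. INHBA, an activin chain, was at 7.51, 7.03 and 8.72 against 11.77, 12.1, 12.13, 10.98 and 12.34 (-4.22 ± 0.32, adjusted p = 5.43e-08). The latency protein gene LTBP1 fell by 3.40 ± 0.21, the receptor gene TGFBR2 by 1.20 ± 0.18 and the signal transducer SMAD3 by 1.63 ± 0.12.

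Genes known to be held down by EWS/FLI fell in 31 of 42, with 5 higher (median -1.70). This list too rests partly on this cell line and is not independent evidence of direction. The members that rose were CYP4F22, DKK2, IRS2, NKD2 (1.71) and TSC22D3 (0.95). FOXO1 was not called (-0.22 ± 0.19, adjusted p = 0.339), and CDKN1A, a cell cycle inhibitor, fell by 0.94 ± 0.20.

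Growth-related lists moved by smaller amounts. DNA replication genes gave 27 higher and 2 lower of 43 (median 0.32; 0 lower without knockdown replicate 3 or 4 or mut9 replicate 3 or 4, and 1 without knockdown replicate 2 or 5 or mut9 replicate 5), with the ligase gene LIG1 at 0.61 ± 0.10, the polymerase gene POLE at 0.51 ± 0.08 and E2F2, an S-phase transcription factor, at 1.48 ± 0.22. Mitosis genes did not follow, with 3 higher and 7 lower of 36 (median -0.02). These shares, 8.33% and 19.4%, were below the 24.0% and 27.1% of all genes. Under quantile scaling the split turned to 8 higher and 3 lower. Lower members numbered 3 without mut9 replicate 5 and 4 without knockdown replicate 4. MKI67, the proliferation marker, was at 14.05, 14.1 and 14.04 with mut9 and at 14.38, 14.05, 14.09, 14.08 and 14.04 with knockdown (0.01 ± 0.12, adjusted p = 0.969). Cyclins and their inhibitors gave 5 higher (3 without mut9 replicate 3) and 3 lower of 21, or 23.8% and 14.3%, at or below the 24.0% and 27.1% of all genes. Oxidative phosphorylation genes gave 22 higher and 1 lower of 37 (median 0.22), led by NDUFA4 at 1.10 ± 0.11. Cytosolic ribosomal protein genes gave 6 higher and 0 lower of 38 (median 0.08). The share higher, 15.8%, was below the 24.0% of all genes. Higher members numbered 24 under quantile scaling. They numbered 1 in batches 3 to 5 alone, without mut9 replicate 3 and without mut9 replicate 5.

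Cholesterol synthesis genes gave 17 higher and 2 lower of 26 (median 0.44; 1 lower without knockdown replicate 3 or 4 or any 1 mut9 library), and 11 higher and 1 lower without the batch block. INSIG1, which restrains the pathway's regulator, fell by 0.87 ± 0.14. Chromatin complex genes gave 18 higher and 4 lower of 43 (median 0.11; 2 lower without mut9 replicate 5), with the remodeller CHD3 at 1.44 ± 0.08 and the BAF subunit SMARCC1 at 1.27 ± 0.08. Genes of the ATF4 and unfolded protein responses gave 2 higher and 15 lower of 30 (median -0.33; 1 higher without knockdown replicate 1, 2 or 3 or mut9 replicate 3 or 5). SESN2 fell by 1.74 ± 0.28 and XBP1 by 1.05 ± 0.13, whereas the chaperone gene HSPA5 was at 0.00 ± 0.19. The ATF4 and unfolded protein list also fell with delta 22, so its fall was not particular to mut9. Delta 22 minus knockdown gave 0 higher and 19 lower of 30 (63.3% lower against 3.61% of all genes, median -0.51). Glycolysis and hypoxia genes gave 8 higher and 11 lower of 33 (24.2% and 33.3%, median -0.17), near the shares of all genes, with CA12, a carbonic anhydrase gene, at -2.64 ± 0.27 and PFKM, a muscle phosphofructokinase gene, at 0.80 ± 0.08. Housekeeping genes gave 7 higher (4 without mut9 replicate 3) and 5 lower of 26, a share in each direction near that of all genes.

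Of the Ewing cell markers 11 of 11 tested members rose and 0 fell, by 0.48 to 3.79; these genes overlap the lists of EWS/FLI targets, so the count is no separate result. CD99, the surface marker of the tumour, is listed at 0 in every library, the control libraries included, and was not tested. These values do not say whether the cells express it. Among markers of other cells, the immune list had 7 of 15 members above the filter on low values, and CD79A at 3.78 ± 0.27 and CSF1R at -1.21 ± 0.24 were called. Its mean was 5.73 to 5.75 with mut9 and 4.95 to 5.29 with knockdown, while PTPRC, the common leukocyte antigen, was at 3.1 to 3.73 and 3.67 to 4.3. The endothelial list (10 of 11 tested) had 1 higher and 7 lower, among them ROBO4 at -3.78 ± 0.35 and TIE1 at -3.57 ± 0.34, and its mean was 4.96 to 5.04 against 5.87 to 6.59. The epithelial list (7 of 14 tested) had 2 higher, KRT8 and KRT18, and 5 lower, led by CLDN4 at -3.27 ± 0.32. None was called higher without knockdown replicate 4, mut9 replicate 3 or mut9 replicate 5, and 1 was without knockdown replicate 2, 3 or 5. The list mean was 5.92 to 6.15 against 6.98 to 7.43. EPCAM and CDH1 did not reach the filter. These lists moved in the same libraries as the adhesion and interferon genes, and their part in those results was not tested.

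The mut9 and wild-type rescues were compared directly, since each shares the same knockdown libraries. Mut9 was higher for 2286 genes (12.7%) and lower for 1604 (8.89%). Both counts shrank without mut9 replicate 3, to 1144 and 694, and with only the 8 libraries of these groups in the model, to 1289 and 617. They were 1545 and 1022 without mut9 replicate 4, and 1447 and 908 without mut9 replicate 5. Under quantile scaling the split turned, with the share of higher calls going from 58.8% to 43.9%. FLI1 was lower with mut9 but was not called (-0.21 ± 0.11, adjusted p = 0.215). Wild-type libraries were at 10.69, 10.46, 10.35, 10.46 and 10.42, and the groups overlapped only through wild-type replicate 3.

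Genes of the GGAA-repeat list gave 3 higher and 4 lower of 26 against wild type (median -0.04), and 2 lower without mut9 replicate 3 or replicate 5. The shares were 11.5% and 15.4%, against 12.7% and 8.89% of all genes. PRKCB differed from wild type by 0.25 ± 0.28 (adjusted p = 0.565). CALCB had the largest fall among genes called: mut9 libraries at 6.98, 6.83 and 6.77 stood below wild-type libraries at 10.22, 11.4, 10.44, 10.42 and 10.25. The difference was -3.83 ± 0.28 (14.2-fold lower, adjusted p = 1.75e-06), and control libraries were at 8.7 to 9.59. CCK was at 5.3, 6.21 and 6.48 with mut9 and at 9.59, 8.84, 7.9, 10.36 and 9.53 with wild type (-3.37 ± 0.37, adjusted p = 5.46e-05). CALCA, the neighbouring calcitonin gene, was lower by 2.31 ± 0.26 and the granin gene CHGA by 2.45 ± 0.32. Other genes lower with mut9 were the Wnt modulator DACT2 (-2.24 ± 0.35), the giant muscle protein gene NEB (-1.90 ± 0.39) and FRG2FP, a pseudogene with near-identical copies (-2.70 ± 0.43). Higher members of the target lists were NPY5R (1.37 ± 0.29), GSTM4 (1.17 ± 0.17), FCGRT (0.77 ± 0.21) and TNFAIP6 (0.85 ± 0.17).

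**Figure D4:**
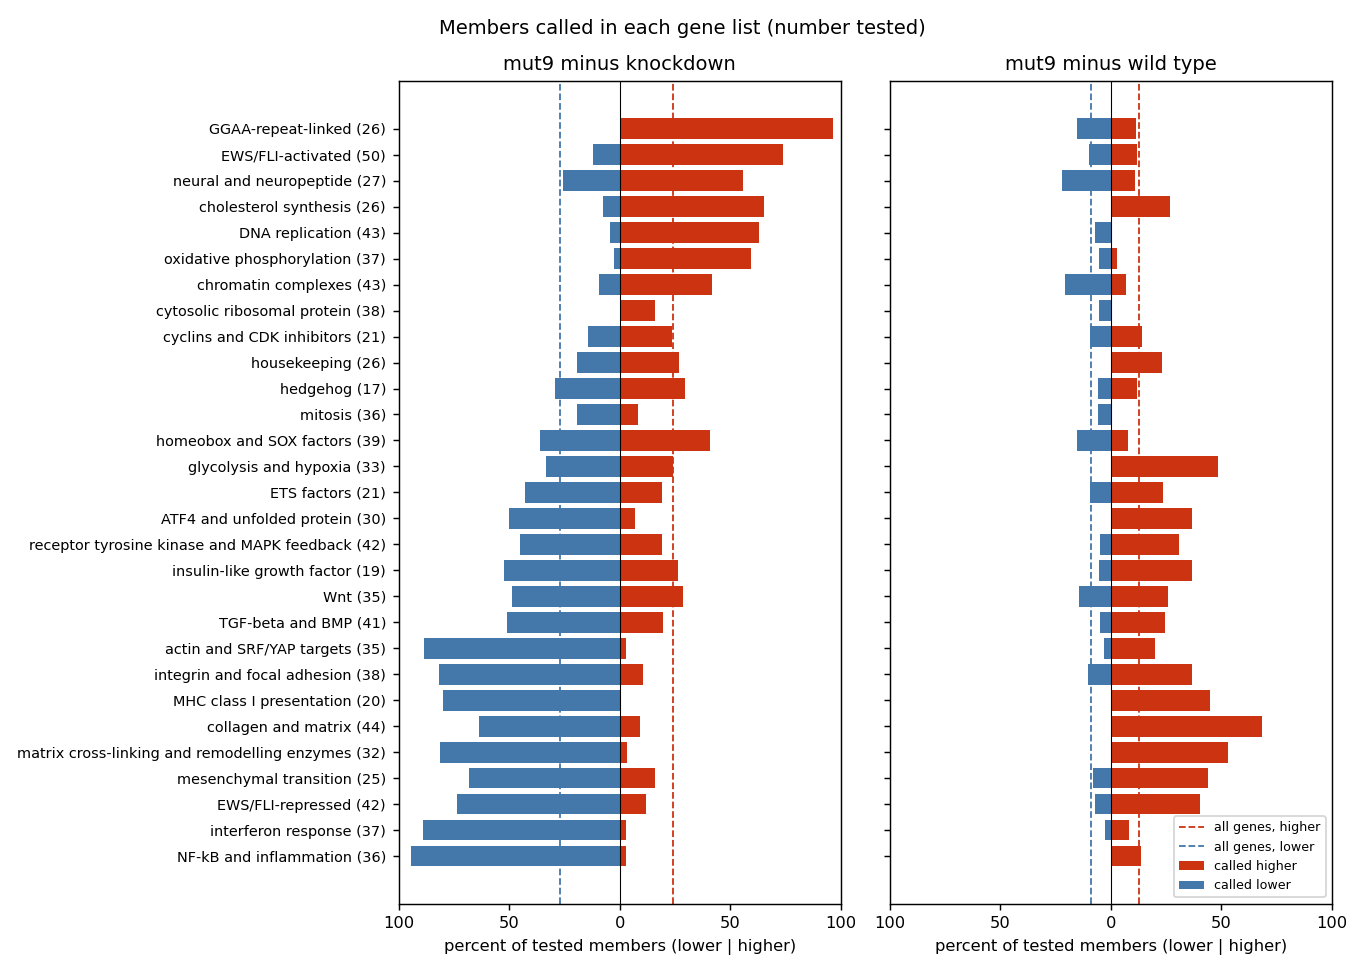
Percent of the tested members of 29 gene lists called higher (red, to the right) or lower (blue, to the left), for mut9 minus knockdown (left panel) and mut9 minus wild type (right panel); dashed lines give the share of all genes called. Against knockdown the GGAA-repeat list lies farthest right (25 of 26 higher) and the NF-kB list farthest left (34 of 36 lower), and against wild type collagen and matrix has 30 of 44 higher and 0 lower.

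Many matrix genes were higher with mut9 than with wild type. In collagen and matrix 30 of 44 members were higher with mut9 than with wild type and 0 lower (median 0.89 against 0.012 over all genes), and 19 without mut9 replicate 5. THBS1, a matrix glycoprotein, was at 11.09, 10.63 and 11.23 with mut9, at 8.15, 7.76, 8.24, 7.83 and 8.67 with wild type and at 12.79 to 14.84 with knockdown. It exceeded wild type by 3.14 ± 0.36 (8.83-fold, adjusted p = 6.48e-05). IGFBP7 was at 11.06, 11.05 and 11.17 with mut9, 8.04 to 9 with wild type and 12.58 to 13.02 with knockdown, and PDGFRA at 10.27, 10.35 and 10.34, 7.31 to 8.1 and 12.23 to 13.6. Mut9 exceeded wild type by 2.66 ± 0.18 and 2.66 ± 0.31, and the 3 groups did not overlap in these 3 genes. COL6A1 exceeded wild type by 2.09 ± 0.26 and LAMA4, a laminin chain, by 2.51 ± 0.34.

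MGP and CFI were different in that mut9 was not below knockdown. CFI, the complement inhibitor factor I, was at 11.49, 11.04 and 10.91 with mut9, at 9.37, 8.79, 9.89, 10.67 and 9.92 with knockdown and at 7.03 to 8.82 with wild type (3.38 ± 0.42 above wild type, adjusted p = 0.000101). MGP exceeded wild type by 3.01 ± 0.49. Matrix enzymes gave 17 higher and 0 lower of 32 (10 without mut9 replicate 3 and 11 without wild-type replicate 4). Glycolysis and hypoxia genes gave 16 higher and 0 lower of 33 (8 to 9 with any mut9 library left out), ATF4 and unfolded protein genes 11 and 0 of 30, and repressed genes 17 and 3 of 42 (1 lower without mut9 replicate 5, and 1 without the replicate block). Interferon genes gave 3 higher and 1 lower of 37 (8.11% and 2.7%, below the 12.7% and 8.89% of all genes). They gave 9 and 1 without wild-type replicate 3. NF-kB and inflammatory genes gave 5 higher and 0 lower of 36 (13.9% higher, near the 12.7% of all genes). Batches 3 to 5 alone gave 1 higher and 1 lower. Higher members numbered 12 without wild-type replicate 3, 3 without wild-type replicate 2 or 5 and 1 without wild-type replicate 4. With any mut9 library left out they numbered 1 to 2. MHC class I genes gave 9 higher and 0 lower of 20, with 18 higher without wild-type replicate 3 and 5 higher without mut9 replicate 5. MX2 was at 11.35 in wild-type replicate 3 and at 4.87 to 6.21 in the rest of that group.

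**Figure D5:**
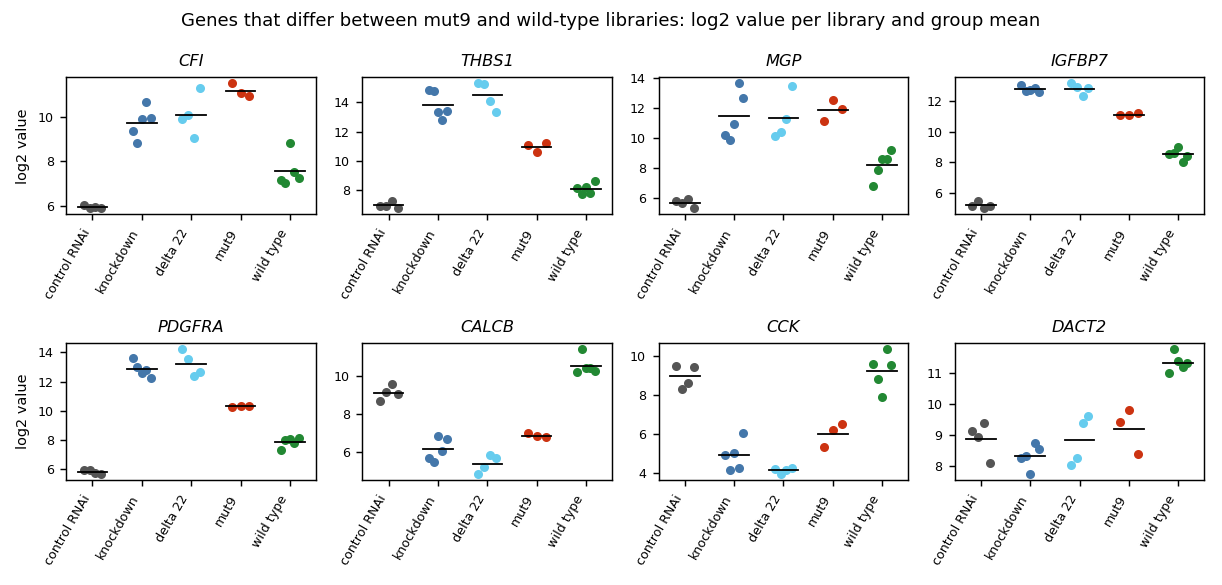
Log2 value (vertical axis, own scale in each panel) of 8 genes in every library, by group; points are libraries and black bars are group means. In the first 5 panels mut9 libraries stand above wild type, as for THBS1 at 10.63 to 11.23 against 7.76 to 8.67, and in the last 3 below, as for CALCB at 6.77 to 6.98 against 10.22 to 11.4.

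Against the control libraries, which kept their own EWS/FLI, mut9 was higher for 4367 genes (24.2%) and lower for 3668 (20.3%). Under quantile scaling this split turned, to 3413 higher and 5368 lower. The GGAA-repeat list gave 5 higher and 8 lower of 26 (19.2% and 30.8%) and repressed genes 37 higher and 1 lower of 42. Collagen and matrix gave 39 higher and 1 lower of 44, with IGFBP7 5.98 above control, and interferon genes 22 higher and 0 lower of 37. The median of all genes in this comparison was 0.028, and -0.107 under quantile scaling. Cytosolic ribosomal protein genes were lower in 37 of 38, oxidative phosphorylation genes in 30 of 37 and mitosis genes in 24 of 36. The knockdown libraries were also below control in these lists, in 37 of 38, 33 of 37 and 23 of 36, so this was not particular to mut9. GPR160 (-3.53), POU1F1 (-3.21) and CCK (-3.14) were among the genes far below control, at 5.96 to 6.31, 8.62 to 9.04 and 5.3 to 6.48. PMP22, a myelin protein gene, and CSPG4, a proteoglycan gene, were 5.59 and 5.14 above it.

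Against delta 22, whose libraries carry the same RNAi and vector, mut9 was higher for 4284 genes (23.7%) and lower for 4856 (26.9%), and under quantile scaling 5114 and 4263, so the split turned. The GGAA-repeat list gave 25 higher and 0 lower of 26 (median 2.18). FLI1 was at 10.99 to 11.51 with delta 22 and at 10.1 to 10.39 with mut9. These values do not separate the transgene from other FLI1, and the part of its level in the list counts was not tested. Interferon genes gave 0 higher and 29 lower of 37, and collagen and matrix 4 and 23 of 44. NF-kB and inflammatory genes gave 1 higher and 27 lower of 36 (median -1.89). ATF4 and unfolded protein genes were more often higher with mut9, at 12 higher and 2 lower of 30 (median 0.14). THBD, the thrombin receptor of endothelium, was at 5.66, 4.67 and 5.61 with mut9 and at 10.09, 10.43, 11.3 and 10.02 with delta 22, and ESM1, an endothelial proteoglycan gene, at 8.14, 8.18 and 9.25 against 12.6, 13.4, 13.78 and 12.74.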

How the data were processed

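RNA of A673 cells was sequenced from 21 libraries in 5 groups. Per the submitters' processing notes, reads were handled with bcl2fastq, STAR 2.5.2b, HTSeq and DESeq2 on hg19. The authors deposited 1 table of normalized log2 values, which has the form of regularized logarithms; this form was read from the values, and read totals cannot be recovered. Groups and batches were taken from the labels.

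Genes with a value of at least 10 on the linear scale in 3 libraries were fitted with limma 3.58.1 (R 4.3.3, trend) over all libraries, with group and batch as terms and Benjamini-Hochberg adjustment at 0.05. The batch block comes from the labels: over mut9 and knockdown libraries of the same number, deviations from the group means correlated above 0.1 in 3 of 3 pairs (mean r 0.37). Over all groups this held for 24 of 34 same-number pairs (mean r 0.20, against -0.049 for pairs of different numbers). An exact permutation test over the libraries was added for the fusion's 2 genes, FLI1 and EWSR1. The fit was also run on simulated data in which few genes changed, in mut9 only. That setting differs from these data, where 51.1% of genes were called between mut9 and knockdown, so it does not check the fit here. Tables were handled with Python 3.11.15 and pandas 2.3.3. Gene names matched 52338 of 57820 identifiers. Promoter windows were RefSeq GRCh38.p14, matched by symbol, with a chromosome left out.

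The comparison and the gene lists were chosen with earlier results of these data known. Named genes were FLI1 and EWSR1, the 12 largest rises and falls with a mean of at least 100 and no overlap, the 6 largest of each sign against wild type, the 4 largest of each sign against control and delta 22, up to 4 members of each list, those lowest in adjusted p, and a hand-written set. Other list members named, and CALCA, CHGA and LAMA4, were chosen after their values were seen. Alternatives were scaling, the filter on low values, the block, array weights, the libraries fitted and leaving out each library.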

Additional observations from a re-analysis of the deposited data

Results flagged for a closer look

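In 18 of 344 sets of libraries examined, the knockdown or the wild-type group of a named gene, 1 library lay far from the others; chance gives about 1 in 20. In 7 the library was wild-type replicate 3: MX2 at 11.35, IFI27 at 11.73, HERC6 at 10.75, CFI at 8.82, YAP1 at 13.38 and EHF at 4.81 were above the other wild-type libraries, and CAV1 at 16.05 was below them. Knockdown replicate 3 was high for MX2 at 13.31 and SLC35F3 at 5.53. Knockdown replicate 5 was high for ETS1 at 14.19, FSTL3 at 11.48 and KRT7 at 8.21. Knockdown replicate 1 was low for CSPG4 at 10.9, and knockdown replicate 2 was high for YWHAZ at 15.79. Wild-type replicate 2 was high for CALCB at 11.4. Wild-type replicate 5 was high for CLDN5 at 5.28 and low for GPI at 13.12, and wild-type replicate 1 was low for CD68 at 4.08.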

How the results depend on the processing

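Between mut9 and knockdown, the count of genes called stayed within 1.5 times of 9211 under every alternative run, from 6743 with a mean of at least 100 to 11300 with array weights, and from 7390 to 9026 with 1 library left out. Without the replicate block 8759 genes were called, of which 8451 were shared. Against wild type, with only the compared groups in the model, 1906 genes were called (1289 higher and 617 lower, against 3890, 2286 and 1604). Leaving out 1 library gave 1838 to 3869 calls, 1144 to 2305 higher and 694 to 1597 lower. The lowest of each was without mut9 replicate 3 (without mut9 replicates 4 and 5 the calls were 2567 and 2355), and quantile scaling gave 2459 lower. Against delta 22 the compared groups alone gave 5569 calls (2425 higher and 3144 lower, against 9140). Of the values of named genes under alternatives, 3107 stayed called or stayed not called, 39 lost the call and 20 gained it. None changed sign where either fit called the gene (0 reversed), and changes of sign among genes called in neither fit were not counted. Many named genes were chosen for large differences or low adjusted p in these same data, so part of this stability was built in. Of counts over lists, 1805 stayed within 1.5 times and 307 did not. The causes were not tested. Log2 values without read totals limit what can be said of low genes.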
